A study of Mus musculus with 10 samples.

Results

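Collagens, laminins and integrins are the genes described here, taken as every gene whose symbol begins with Col and ends in an alpha chain number, every laminin alpha, beta or gamma chain, and every integrin alpha or beta chain with a number or v in its symbol. The rule finds 78 of 17919 genes, namely 44 collagens, 11 laminins and 23 genes with integrin symbols. Among the last are 3 proteins that bind integrins and are not integrins themselves, Itgb1bp1, Itgb1bp2 and Itgb3bp. The cells were neural stem cells, isolated at embryonic day 10 from the ventral part of the midbrain of ICR mice, and they were passaged every 4 days in culture. All cultures had received a lentivirus, either one that expresses the RNA-binding protein Lin28a or a mock virus (control). Cells were sampled at passage 1 (P1) and passage 3 (P3) for RNA-seq and small RNA sequencing, and at P3 also for polysome-seq, the sequencing of RNA that sediments with several ribosomes. Each of the 10 libraries is a group of its own, so there is no replicate error, no test was run, and every difference describes these libraries. No source used here gives the promoter in the virus, the number of embryos behind a culture or which gradient fractions went into polysome-seq.

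The extracellular matrix outside a cell is held together by collagens, triple helices of 3 alpha chains, and by laminins, crosses of 1 alpha, 1 beta and 1 gamma chain. Type IV collagen and laminin each form a sheet, and together they make the basement membrane, to which the end feet of neural stem cells attach in the embryonic brain. Fibrillar collagens form cables, and fibril-associated collagens coat them. Integrins are pairs of 1 alpha and 1 beta chain that bind these proteins outside the cell and the actin cytoskeleton inside it. The alpha chain largely sets the ligand: alpha 3, 6 and 7 bind laminin, alpha 1 and 2 bind collagen, and alpha 5 and v bind fibronectin and other proteins with an RGD sequence.

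Levels are in FPKM (fragments scaled to transcript length and library size) for RNA-seq and in RPKM (reads in place of fragments) for polysomes, so both are per length and can be set beside each other between genes within a library. Where 4 RNA-seq values follow each other, they are in the order P1 control, P1 Lin28a, P3 control and P3 Lin28a. Lin28a itself, at 0.128, 478, 0.0620 and 104 FPKM, was high in the libraries labelled Lin28a. The total depth of these libraries is unknown, and the steps between low values put the RNA-seq libraries at 1.01 to 1.16 times the depth of P1 control. Of 8 neural progenitor markers, 5 were higher and 3 lower at P3 in control by any amount, where 49.7% of all genes were higher and 50.3% lower. In Lin28a the counts were also 5 and 3, where 6291 of 12850 genes were higher and 6559 lower. The progenitor gene Sox2 was at 262.5, 259.8, 389.6 and 372 FPKM, while Prom1, of the same list, was at 110.6, 90.2, 21.6 and 39.6 FPKM. Summed levels of 10 astroglial markers were 1881, 1580, 8107 and 3895 FPKM, and those of 12 oligodendrocyte markers were 187, 112.4, 2296 and 1391 FPKM. The 10 neuronal markers went the other way, at 909.9, 794.7, 200.2 and 396 FPKM. Fabp7 was the largest part of the astroglial sum in each library, at 1521, 1313, 3418 and 1753 FPKM. Olig1, at 100.9 and 59.1 FPKM, and Olig2, at 55.7 and 34.4 FPKM, led the oligodendrocyte sum in P1 control and P1 Lin28a. The labelled stem cell cultures therefore held RNA of genes listed as markers of several neural cell types, in amounts that differ between the groups. In RNA from whole cultures, fewer cells of a type and less RNA per cell cannot be told apart, and the part of these markers in the results below was not tested.

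Of the 78 genes, 54 reached 1 FPKM in at least 1 RNA-seq library (30 collagens, 7 laminins and 17 of the integrin family), and 41 reached it in all 4 libraries. The other 24 stayed below 1 FPKM throughout and also below 1 RPKM in the polysome libraries. Among these silent or near-silent genes were the type IV chains Col4a3 and Col4a4 (highest RNA-seq levels 0.125 and 0.0923 FPKM), the anchoring fibril collagen Col7a1 (0.273), the epithelial laminin chains Lama3 (0.602) and Lamb3 (0.199), and the leukocyte integrin chain Itgb2 (0.0942). A value at the fixed floor of a file was listed for Col6a5 in P1 control, for Itgb7 in P1 Lin28a and for Col10a1 in both polysome libraries. The low Itgb2 stands beside microglial and leukocyte markers with a summed level of 1.39 to 1.97 FPKM in the 4 RNA-seq libraries. Of 9 endothelial markers, 1 reached 1 FPKM at P1 and 3 at P3, with summed levels of 8.88, 10.5, 10.3 and 6.55 FPKM. Most of that sum was Kdr, a VEGF receptor, at 7.86, 8.70, 4.47 and 3.51 FPKM, and at P3 also Flt1, another VEGF receptor, at 4.31 FPKM in control and 1.46 in Lin28a, while Pecam1 and Cdh5, adhesion proteins of endothelium, were at or below 0.145 FPKM.

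Integrin beta 1 carried the highest level of all members. Itgb1 was at 169.6, 142.7, 249.6 and 188.7 FPKM, 43.7% to 46.5% of the summed level of the integrin family in each RNA-seq library. The beta 5 chain Itgb5, a partner of alpha v, followed at 57.5, 51.9, 70.1 and 49.8 FPKM. Among the partners of beta 1, alpha v and alpha 6 stood highest on average over the 4 libraries, although Itga7, at 45.7 FPKM, was above Itga6 in P3 control, with Itgav at 34.9, 25.7, 65.0 and 42.9 FPKM and Itga6 at 45.7, 40.5, 30.1 and 35.9 FPKM. The fibronectin receptor chain Itga5 varied least among them, between 5.66 and 6.41 FPKM.

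In RNA-seq the laminin genes with the highest levels were Lamc1, a gamma chain, and Lamb2, a beta chain, and the alpha chains stood lower. Lamc1 was at 52.6, 43.8, 49.7 and 42.3 FPKM. Lamb2 was at 39.3, 40.0, 55.4 and 49.7 FPKM, or 88.3% to 94.1% of the beta chain level. The summed alpha chains came to 20.4, 18.8, 39.1 and 34.1 FPKM, and Lama5 was the highest of them in all 4 libraries. So the summed RNA level of the alpha chains was below that of Lamc1 alone and of Lamb2 alone in each RNA-seq library. In the polysome libraries the order was reversed. There the summed alpha chains were at 30.87 RPKM in control and 26.05 in Lin28a. Lamc1 was at 22.47 and 23.12 RPKM, and Lamb2 at 13.75 and 16.35 RPKM.

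No single collagen dominated. The highest on average over the 4 RNA-seq libraries were Col18a1, whose C-terminal fragment is endostatin, Col9a3 and Col4a1, and Col18a1 held between 10.4% and 13.8% of the summed collagen level. By class, the fibrillar collagens summed to 86.98, 77.2, 81.6 and 80.6 FPKM, nearly the same in every library. The summed level of all genes differed between libraries, and the fibrillar share of it was 0.0191%, 0.0172%, 0.0143% and 0.0153%. The share of all collagens was 0.0497%, 0.0451%, 0.0708% and 0.063%. The type IV chains summed to 62.4, 51.8, 106.5 and 88.8 FPKM, the beaded-filament chains to 6.53, 6.88, 28.5 and 20.0 FPKM, and the fibril-associated collagens to 33.5, 29.4, 104.9 and 81.5 FPKM. The plot of levels by gene shows that the open P1 symbols and the filled P3 symbols often stand apart, while the circles and squares of 1 passage mostly stand close.

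**Figure D1:**
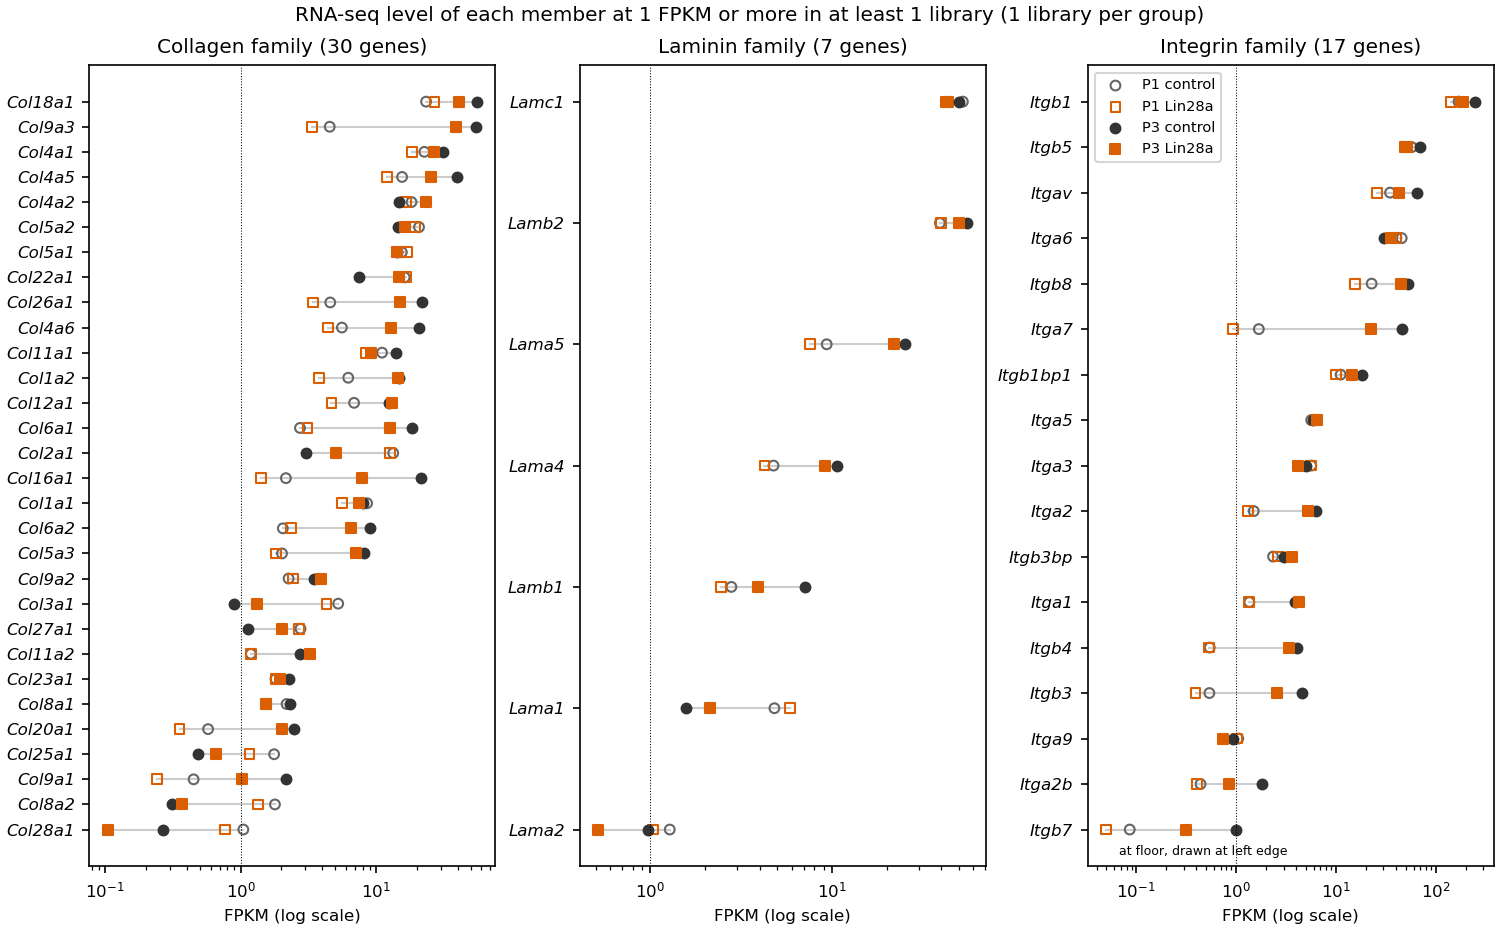
RNA-seq level in FPKM (log axis) of the 54 members that reached 1 FPKM in at least 1 library, by family, with 1 point per library: circles for control, squares for Lin28a, open for P1, filled for P3; Itgb7 in P1 Lin28a is at the floor and is drawn at the left edge. Itga7 lies at 1.69 and 0.934 FPKM at P1 and at 45.7 and 22.7 FPKM at P3, while Lamc1 stays between 42.3 and 52.6 FPKM.

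Passage gave the largest differences among the members. In the control cultures 21 of 54 members compared were more than 2-fold higher at P3 than at P1 and 5 were more than 2-fold lower. Of 13011 genes compared, 11.5% were higher and 8.14% lower by the same rule, which takes the log2 ratio after adding 1 to both values and needs at least 1 FPKM in one of the 2 libraries. The median log2 ratio was 0.61 over the 54 members compared, against -0.00 for all genes compared, but 0.07 over all 78 members with no minimum, so it describes only the members with a measurable level. By family, 12 of 30 collagens were higher and 4 lower, 3 of 7 laminins were higher and 1 lower, and 6 of 17 genes of the integrin family were higher and none lower. The higher counts were 18 of 51 in the Lin28a cultures, with 3 lower, where 8.38% and 4.8% of 12850 genes were higher and lower and the median was 0.50 over the 51 and 0.08 over all 78. The lower count in control was 8 with a pseudocount of 0.1 and 3 where 5 FPKM or more was required, and with that stricter filter the higher count of the integrin family was 3 in place of 6 in each culture.

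The 2 passage comparisons share no library, so they can be set against each other. Of 51 members compared in both, 17 (33.3%) were past 2-fold higher in both, against 7.35% of 12723 genes, and 3 (5.88%) were past 2-fold lower in both, against 4.07% of genes. The 17 were 10 collagens (Col1a2, Col4a5, Col4a6, Col5a3, Col6a1, Col6a2, Col9a3, Col16a1, Col20a1 and Col26a1), the laminin Lama5, and 6 integrin chains (Itga1, Itga2, Itga7, Itgb3, Itgb4 and Itgb8). The 3 were Col2a1, Col3a1 and Lama1. The passage ratio in Lin28a minus that in control ran from -0.95 for Col16a1 to 0.85 for Col22a1, with none of the 51 past 2-fold, where 1.49% of 12723 genes were past it upward and 0.755% downward.

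**Figure D2:**
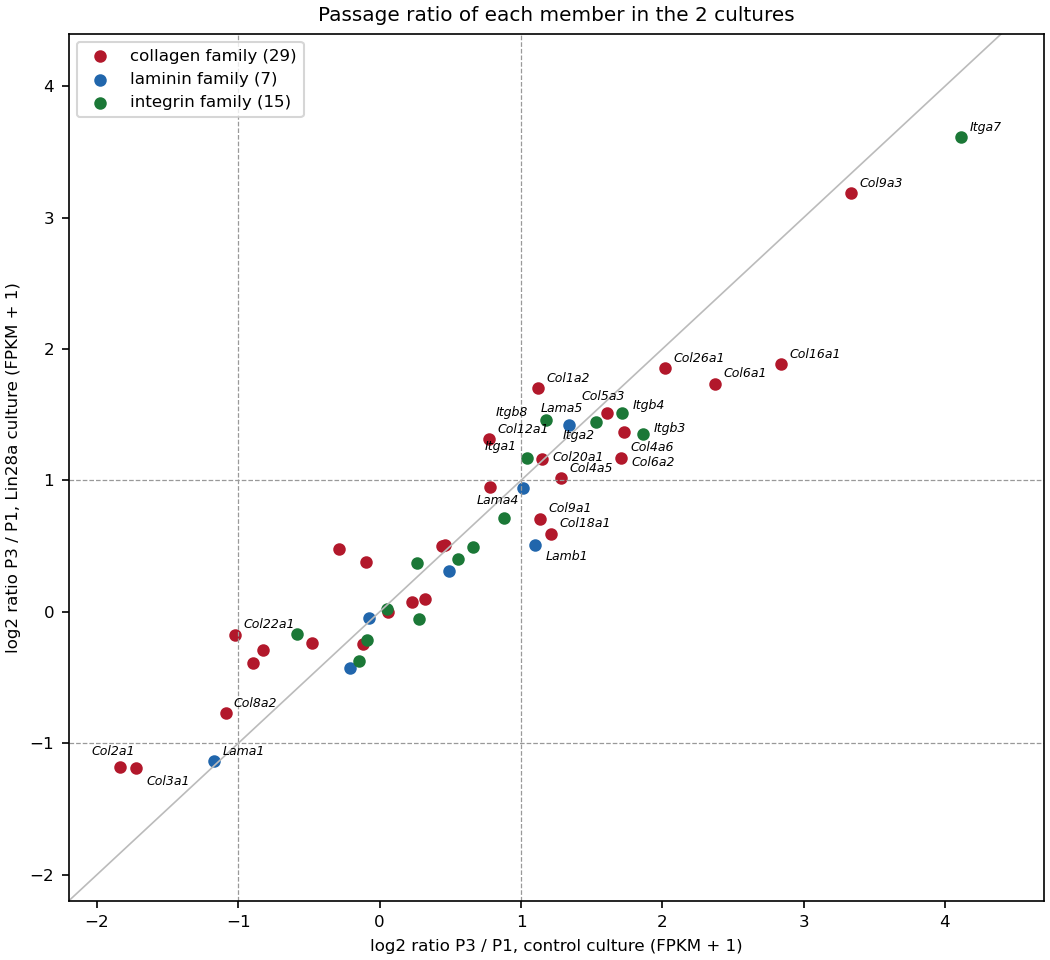
Log2 ratio of P3 to P1 (FPKM + 1) in the control cultures (horizontal) and the Lin28a cultures (vertical) for the 51 members compared in both, coloured by family; dashed lines mark 2-fold and the solid line equal ratios. Itga7 (4.12 and 3.61) and Col9a3 (3.34 and 3.19) lie farthest out, and Col2a1, Col3a1 and Lama1 lie lower left.

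The laminin-binding alpha chains parted with passage. Itga7, an integrin chain best known from muscle, was at 1.69, 0.934, 45.7 and 22.7 FPKM, 27.0 times as high at P3 as at P1 in control and 24.3 times in Lin28a. Both P3 libraries were far above both P1 libraries, and its log2 ratios of 4.12 and 3.61 were the largest of all members. Itga6 was lower at P3 than at P1 in both cultures, with log2 ratios of -0.59 and -0.17, and Itga3 was at 5.67, 5.67, 5.02 and 4.15 FPKM. In P3 control RNA-seq Itga7 thereby made up 56.6% of the summed level of these 3 chains, where Itga6 had made up 86.1% in P1 control. In P3 Lin28a RNA-seq Itga6 was still the highest of the 3, at 57.2%. The polysome libraries at P3 did not show this change, with Itga6 at 83.2% in control and 85.9% in Lin28a.

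The collagen-binding chains that were measurable were both higher at P3. Itga1 was at 1.36, 1.34, 3.85 and 4.26 FPKM and Itga2 at 1.51, 1.31, 6.26 and 5.27 FPKM. The genes for these 2 receptors are neighbours on the same strand of chromosome 13. The P3 values of each were above its P1 values in both cultures, with log2 ratios from 1.04 to 1.53. The other collagen-binding chains, Itga10 and Itga11, stayed at or below 0.383 FPKM.

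Among the beta chains, Itgb3 and Itgb4 were low at P1 and moderate at P3, and Itgb8 was higher at P3 from a higher P1 level. Itgb3, a partner of alpha v, was at 0.540, 0.393, 4.61 and 2.55 FPKM, with log2 ratios of 1.86 in control and 1.35 in Lin28a. Itgb4, which pairs with alpha 6 alone and anchors epithelia to laminin, was at 0.544, 0.535, 4.08 and 3.39 FPKM (1.72 and 1.52). Itgb8, a partner of alpha v that activates latent TGF-beta and is known in neuroepithelium, was at 22.8, 15.6, 52.8 and 44.6 FPKM (1.17 and 1.46). All 6 beta chains compared in control were higher at P3 by some amount, where 49.7% of all genes were, the smallest being Itgb5 at 0.28. In the Lin28a cultures 4 of 5 were higher, where 6291 of 12850 genes were, and Itgb5 was at -0.06.

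Among collagens, the largest passage ratio was that of Col9a3, a chain of type IX collagen, the collagen that coats type II fibrils in cartilage. Col9a3 was at 4.55, 3.37, 55.0 and 38.8 FPKM, 12.1 times as high at P3 in control and 11.5 times in Lin28a. The other chains of the same trimer stayed low, Col9a1 at 0.450, 0.240, 2.18 and 1.03 FPKM and Col9a2 at 2.26, 2.45, 3.49 and 3.92 FPKM. In P3 control, the RNA of the alpha 3 chain was thus many times that of its partners. Col2a1, the main chain of the fibrils that type IX collagen coats, went the other way, at 13.4, 12.7, 3.04 and 5.05 FPKM (log2 ratios -1.84 and -1.18). Col16a1, another fibril-associated collagen, was at 2.16, 1.41, 21.6 and 7.90 FPKM, 10.0 times as high at P3 in control and 5.61 times in Lin28a. Col20a1 (1.15 and 1.16) was higher as well, whereas Col22a1 was at 16.3, 16.7, 7.50 and 14.7 FPKM, lower at P3 in control (-1.02) and little different in Lin28a (-0.17).

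Type VI collagen, which forms beaded filaments, was represented by 2 of its chains. Col6a1 was at 2.74, 3.12, 18.4 and 12.7 FPKM (log2 ratios 2.38 and 1.74) and Col6a2 at 2.05, 2.37, 8.99 and 6.59 FPKM (1.71 and 1.17). These 2 genes are neighbours on the minus strand of chromosome 10. Col6a3, the usual partner of both in the trimer, was at 0.493, 0.414, 0.563 and 0.402 FPKM, below both partners in every library, and Col6a4, Col6a5 and Col6a6 were at or below 0.146 FPKM. Col26a1, at 4.59, 3.42, 21.7 and 14.9 FPKM, had log2 ratios of 2.02 and 1.85.

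Type IV collagen has 3 known trimers, and its chains are encoded in head-to-head gene pairs. Col4a1 and Col4a2, the pair that makes the common trimer, differed little with passage: Col4a1 was at 22.7, 18.5, 31.2 and 26.7 FPKM and Col4a2 at 18.3, 16.6, 14.8 and 23.5 FPKM. In control these neighbours had passage ratios of opposite sign (0.44 and -0.29), while in Lin28a both were positive (0.50 and 0.48). Col4a5 was at 15.6, 12.1, 39.4 and 25.5 FPKM (1.28 and 1.02) and Col4a6 at 5.60, 4.41, 20.9 and 13.0 FPKM (1.73 and 1.37). Both genes of the X-linked pair were thus past 2-fold higher in both cultures, and in P3 control Col4a5 exceeded Col4a1.

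The 250 bases before the RefSeq start of 3 of these members are shown because Col4a5 and Col4a6 start back to back and were high together, with Col6a1 beside them as another member past 2-fold higher in both cultures, on another chromosome and with larger passage ratios. They are from RefSeq, build GRCm38.p6, 5′ to 3′ on the strand of each gene: chrX:141475169-141475418 on the plus strand for Col4a5, chrX:141474077-141474326 on the minus strand for Col4a6, and chr10:76726045-76726294 on the minus strand for Col6a1. Capitals mark CCAAT, the GC box GGGCGG and the TATA box TATAAA, each searched on both strands.
Col4a5: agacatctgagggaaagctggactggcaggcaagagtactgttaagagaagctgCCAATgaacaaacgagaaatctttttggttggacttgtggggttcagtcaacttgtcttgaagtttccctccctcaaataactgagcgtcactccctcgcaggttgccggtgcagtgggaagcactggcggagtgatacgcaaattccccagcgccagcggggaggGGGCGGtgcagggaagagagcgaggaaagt
Col4a6: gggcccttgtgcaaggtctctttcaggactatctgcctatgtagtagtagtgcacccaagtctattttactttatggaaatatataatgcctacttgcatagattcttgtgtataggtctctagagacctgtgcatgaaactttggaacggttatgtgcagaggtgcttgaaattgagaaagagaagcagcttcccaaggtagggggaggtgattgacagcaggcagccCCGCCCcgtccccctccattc
Col6a1: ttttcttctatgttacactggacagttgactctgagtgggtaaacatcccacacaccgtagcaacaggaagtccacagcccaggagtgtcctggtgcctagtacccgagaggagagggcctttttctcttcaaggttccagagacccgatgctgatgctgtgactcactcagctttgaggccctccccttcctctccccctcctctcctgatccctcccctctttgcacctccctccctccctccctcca
The Col4a5 window holds 1 CCAAT and 1 GGGCGG, the Col4a6 window 1 GGGCGG on its other strand (printed as CCGCCC), and the Col6a1 window none of the 3 words. Over the 62 windows of 57 members, 25.8% hold CCAAT, 48.4% GGGCGG and 8.06% TATAAA, against 33.8%, 32.7% and 12.4% of 32851 windows of all genes. Median GC content was 58.8% in the members' windows and 52.4% in all, and the part of base composition in these shares was not tested. These matches describe letters and not binding.

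The fibrillar collagens differed from each other. Col1a2 was at 6.24, 3.80, 14.7 and 14.6 FPKM (log2 ratios 1.12 and 1.70), but Col1a1, its partner in type I collagen, was at 8.59, 5.58, 7.97 and 7.54 FPKM (-0.10 and 0.38). Col5a3 was at 2.02, 1.82, 8.20 and 7.07 FPKM (1.61 and 1.52), and the more common type V chains Col5a1 and Col5a2 were within 2-fold, Col5a2 at 20.8, 19.5, 14.6 and 16.4 FPKM. Col3a1, the fibrillar collagen of vessel walls and soft connective tissue, was at 5.26, 4.31, 0.889 and 1.33 FPKM (-1.73 and -1.19). Of 10 fibrillar collagens compared in each culture, 2 were higher and 2 lower past 2-fold. Of all genes, 11.5% were higher and 8.14% lower by this rule in control, and 8.38% and 4.8% in Lin28a. Beside these values, fibroblast genes were also lower at P3 in both cultures, with Lum at 6.62, 5.95, 0.10 and 0.481 FPKM and Dcn at 29.4, 27.3, 3.64 and 8.45 FPKM. The 14 mesenchymal and fibroblast markers together did not move one way. Past 2-fold, 3 of 11 were higher and 6 lower in control, and 3 of 11 higher and 3 lower in Lin28a, beside the same shares of all genes. Their summed level of 149.5, 147.9, 441.6 and 291 FPKM followed Acta2 and Tagln, which were higher at P3.

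The laminin alpha chains differed in their direction with passage, while Lama5 stayed the highest of them. Lama1, the alpha chain of the first basement membranes of the embryo, was at 4.82, 5.87, 1.58 and 2.12 FPKM (log2 ratios -1.17 and -1.14). Lama5, an alpha chain of later basement membranes, was at 9.35, 7.56, 25.3 and 21.9 FPKM (1.34 and 1.42), and Lama4, known from vessels and nerves, at 4.77, 4.25, 10.6 and 9.11 FPKM (1.01 and 0.95). Both P3 libraries were below both P1 libraries for Lama1 and above them for Lama4 and Lama5. Lamb1 was at 2.79, 2.45, 7.14 and 3.90 FPKM (1.10 and 0.51), while Lamb2 (0.49 and 0.31) and Lamc1 (-0.08 and -0.05) were near their P1 levels.

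Lin28a cultures differed little from control at P1. None of 48 members compared was past 2-fold in either direction, where 0.135% of 12564 genes were higher and 0.0955% lower, so the members' count is near the background. By any amount, 13 members were higher and 35 lower, where 48.4% of genes were higher and 51.6% lower, with a median log2 ratio of -0.15 against -0.01 for all genes (-0.08 over all 78 members with no minimum). The medians were -0.23 for 28 collagens, -0.14 for 7 laminins and -0.14 for 13 genes of the integrin family. The ratios ran from -0.59 for Col1a2 (6.24 FPKM in control and 3.80 in Lin28a) to 0.24 for Lama1 (4.82 and 5.87).

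At P3 the members were again mostly a little lower in Lin28a. Of 49 members compared, 35 were lower and 14 higher by any amount, where 51.5% of genes were lower and 48.5% higher, with a median of -0.21 against -0.01 for all genes (-0.13 over all 78 members). Past 2-fold there were 0 higher and 1 lower, Col16a1, where 1.31% of 12716 genes were higher and 1.34% lower. With a pseudocount of 0.1, 5 members were lower past 2-fold, 2 collagens and 3 of the integrin family. The family medians were -0.19 for 27 collagens, -0.20 for 6 laminins and -0.28 for 16 genes of the integrin family, and that of all 44 collagens with no minimum was -0.02. This comparison uses the same P3 control library as the passage comparison in control.

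Col16a1 was at 21.6 FPKM in P3 control and 7.90 in P3 Lin28a, a log2 ratio of -1.35. Itga7 was at 45.7 and 22.7 FPKM (-0.98), the lowest ratio of the integrin family. All 6 beta chains compared were lower in Lin28a by some amount, where 51.5% of all genes were. Their ratios ran from -0.66 for Itgb3 to -0.21 for Itgb4, with Itgb1 at 249.6 FPKM in control and 188.7 in Lin28a (-0.40). The laminin beta chain Lamb1 was at 7.14 and 3.90 FPKM (-0.73). Members with higher values in Lin28a at P3 were led by Col22a1, at 7.50 and 14.7 FPKM (0.88), Col4a2, at 14.8 and 23.5 FPKM (0.63), and Col2a1, at 3.04 and 5.05 FPKM (0.58). Astroglial markers were lower in P3 Lin28a for 9 of 9 genes compared, oligodendrocyte markers for 11 of 11, and neuronal markers were higher for 9 of 9, all by any amount. Neural progenitor markers were mixed, with 6 higher and 2 lower, as were mesenchymal and fibroblast markers, with 5 higher and 4 lower. Of all genes, 51.5% were lower and 48.5% higher.

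Polysome RNA at P3 showed a few single differences between the cultures. Of 39 members compared, 1 was higher past 2-fold in Lin28a, Col2a1, and 1 lower, Itga7, where 0.952% of 12289 genes were higher and 0.122% lower. Polysomal Col2a1 stood at 1.31 RPKM in control but 5.30 in Lin28a, a log2 ratio of 1.45, in the same direction as in RNA-seq at P3. Itga7 was at 3.92 and 1.22 RPKM (-1.15), again as in RNA-seq, but it falls below the minimum where 5 RPKM or more is required, which leaves a lower count of 0. The median was -0.07 for the members and 0.06 for all genes, and 0.00 over all 78 members with no minimum. The family medians were 0.05 for 19 collagens, -0.15 for 7 laminins and -0.19 for 13 genes of the integrin family, all below that of all genes, so the sign of the collagen median flips when ratios are centred on all genes. Among the fibrillar collagens, 6 of 7 compared were higher in Lin28a by some amount, where 62.8% of all genes were higher and 37.2% lower, including Col5a1 (3.74 and 5.67 RPKM) and Col5a2 (3.90 and 6.15 RPKM).

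**Figure D3:**
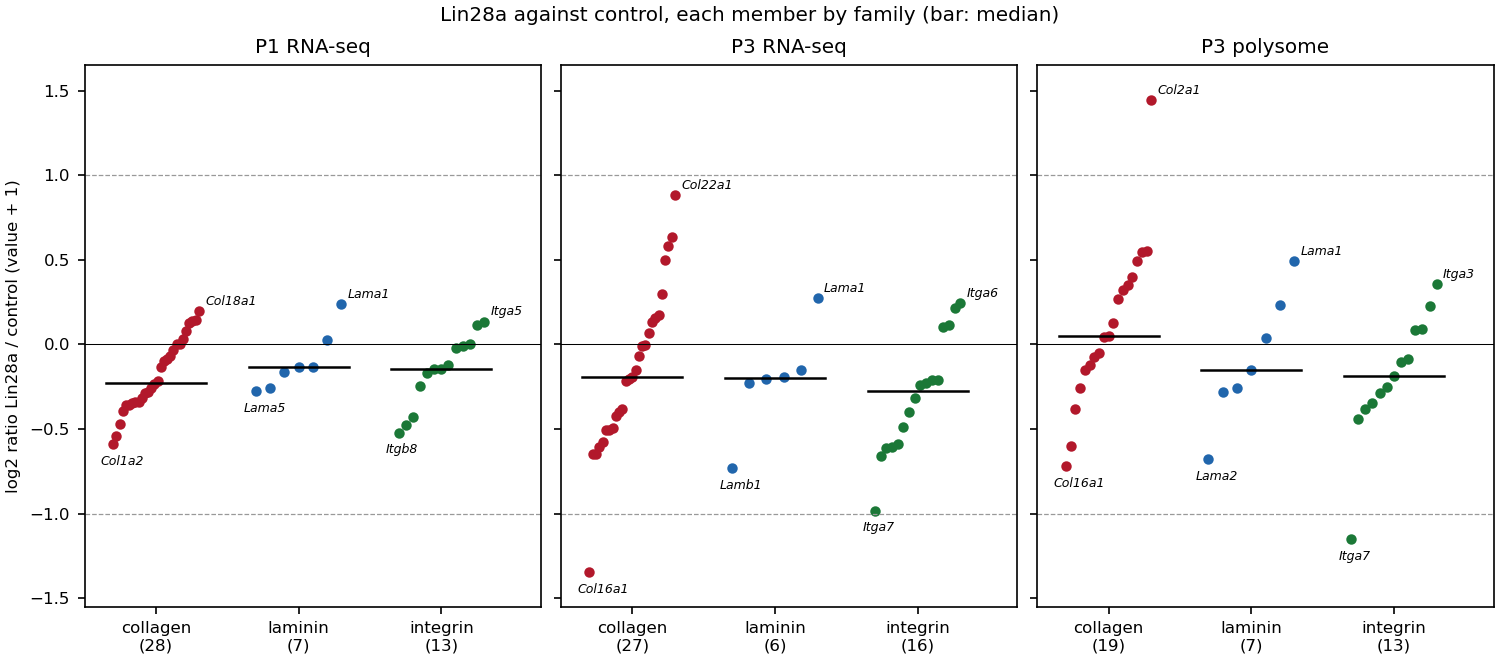
Log2 ratio of Lin28a to control (value + 1) for each member compared, ordered within its family, in P1 RNA-seq, P3 RNA-seq and P3 polysome RNA; black bars are family medians and dashed lines mark 2-fold. In both RNA-seq panels the 3 medians lie between -0.28 and -0.14, and the members past 2-fold are Col16a1 at P3 and, in polysome RNA, Col2a1 and Itga7.

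The difference between assays, that is the polysome log2 ratio of Lin28a to control minus the RNA-seq log2 ratio at P3 (the polysome to RNA ratio), could be taken for 14 members at 5 or more in all 4 libraries. None was past 2-fold, where 0.358% of 7817 genes were higher and 0.0512% lower, and the median was 0.17 against 0.07 for all genes. It ran from -0.67 for Col12a1 to 0.71 for Itgb5. Itgb5 was at 70.1 FPKM in P3 control and 49.8 in P3 Lin28a, but at 41.3 and 48.6 RPKM in the polysome libraries. For Col4a5 (0.66) the RNA-seq levels were 39.4 and 25.5 FPKM and the polysome levels 7.70 and 8.01 RPKM. Whether the P3 polysome and RNA-seq libraries were made from the same cultures is not stated, so a difference between assays and one between cultures cannot be told apart. Only 3 collagens entered, since most were under 5 RPKM in polysome RNA.

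The low polysome level of collagens is visible in their rank among all genes. Percentiles were used because the 2 assays were quantified in different ways, and this comparison was chosen after the values were seen. In P3 control, 24 of 26 collagens (92.3%) stood at a lower percentile in polysome RNA than in RNA-seq, with medians of 36.66 and 66.12, where the share over all genes was 49.8%. In P3 Lin28a it was 24 of 27 (88.9%), and 50.4% of all genes. Among laminins 4 of 7 were lower in control and 5 of 7 in Lin28a, and among the integrin family 8 of 16 and 7 of 14; the difference between families was not tested. Col9a3 stood at percentile 90.2 in P3 control RNA-seq and 46.8 in polysome RNA, Col6a1 at 73.2 and 32, and Col4a1 at 82.6 and 45.1. Itgb1 stood at 98.0 and 98.1 and Lama5 at 79.1 and 80.2. Col12a1, a fibril-associated collagen, was an exception among collagens, at 64.8 and 77.3. Percentiles of the other matrix genes named below were not compared. In P3 control, Smoc1 was at 164 FPKM and 16.2 RPKM and Loxl2 at 37.4 and 7.60. Frem1 was at 2.19 and 9.31 there, and Adamts3 at 1.33 and 5.07. Whether the lower rank is particular to collagens among matrix genes was not tested.

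**Figure D4:**
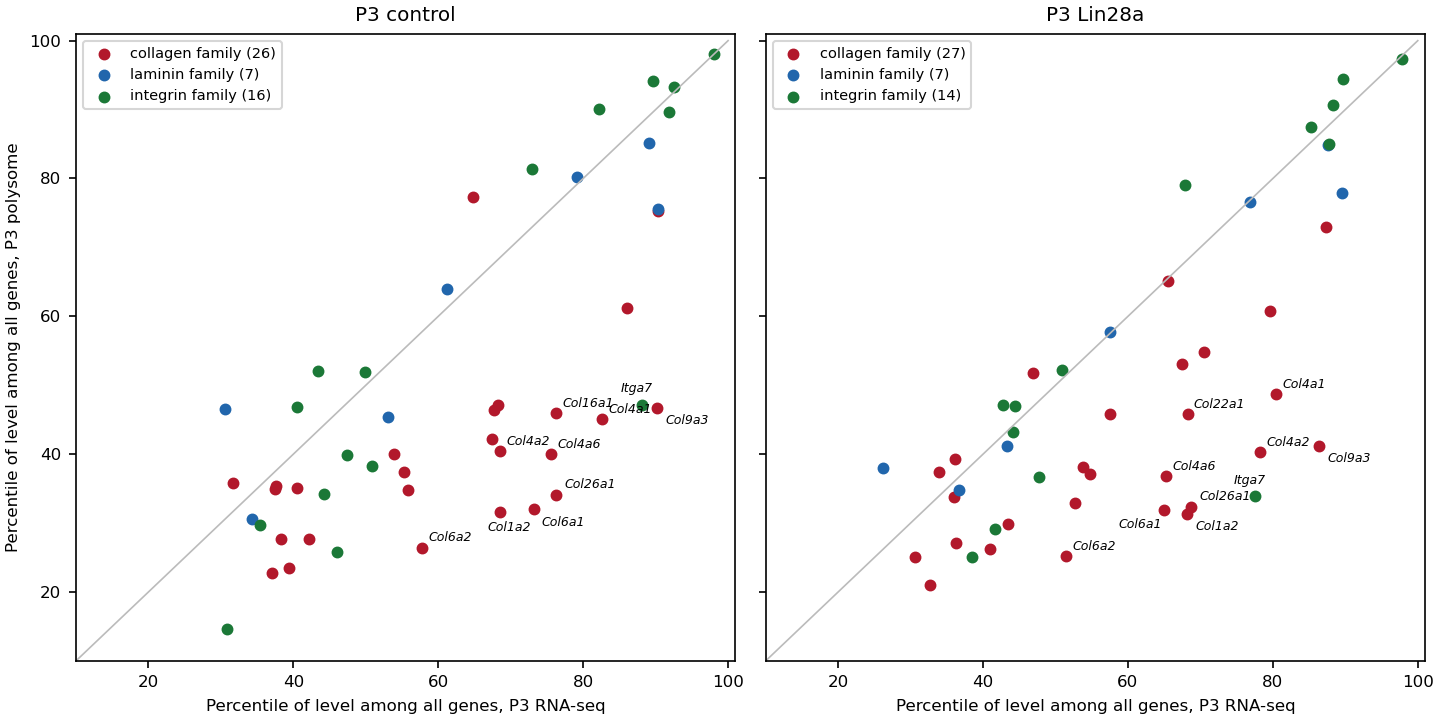
Percentile of each member among all genes in P3 RNA-seq (horizontal) and P3 polysome RNA (vertical), for control and Lin28a, for members that reached 1 in either library; the line marks equal percentiles. Most collagens lie below the line (24 of 26 in control, 24 of 27 in Lin28a), and laminins and integrins lie on both sides.

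Passage and assay ran together for part of these collagens. All 12 collagens that were past 2-fold higher at P3 in control had a polysome percentile nearer to that of P1 RNA-seq than to that of P3 RNA-seq, as had 59.1% of the 1496 genes higher by the same rule. In Lin28a it was 10 of 11 such collagens, and 64% of 1077 genes. Col9a3, for example, stood at 45.3 in P1 RNA-seq, 90.2 in P3 RNA-seq and 46.8 in P3 polysome RNA, and Col26a1 at 45.4, 76.3 and 34.1. These genes were picked by a high P3 RNA-seq value, and 84.6% of the 1496 were at a lower percentile in polysome RNA. Of the 4 collagens past 2-fold lower at P3 in control, 0 were nearer to P1, against 37.1% of 1059 genes. All 4 were at a lower percentile in polysome RNA than in P3 RNA-seq, against 26.1%. In Lin28a these counts were 0 and 1 of 2, against 46.8% and 20.7% of 617 genes. In control, 14 collagens were within 2-fold between passages, such as Col5a1 at 67.7 in P3 RNA-seq and 46.5 in polysome RNA. Of these 14, 11 were also at the lower percentile in polysome RNA, where the share was 47.9% of 10456 genes. In Lin28a it was 13 of 16, against 49.3% of 11156 genes. Most oligodendrocyte markers had the same pattern as Col9a3. The 11 that were higher at P3 in control had median percentiles of 40.1 in P1 RNA-seq, 96.3 in P3 RNA-seq and 37.0 in polysome RNA. Of these 11, 9 were lower in polysome RNA than in P3 RNA-seq and 8 were nearer to P1, against 84.6% and 59.1% of the 1496 genes. The 9 astroglial markers higher at P3 in control had medians of 89.5, 98.6 and 92.3. All 9 were lower in polysome RNA and 7 were nearer to P1. The part of cell composition or of the culture behind the polysome libraries in these values was not tested.

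The small RNA libraries bear on the same genes through the miR-29 family, whose members are known to target collagen and laminin transcripts. The mature sequences below, from RefSeq (build GRCm38.p6), are shown because all 3 have the same seed, bases 2 to 8 in capitals, and so differ only outside the part that pairs first with a target.
miR-29a-3p: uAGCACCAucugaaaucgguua
miR-29b-3p: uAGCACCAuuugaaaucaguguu
miR-29c-3p: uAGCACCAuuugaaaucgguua
Of these, miR-29a is encoded on chromosome 6, miR-29c on chromosome 1, and miR-29b on both, so its reads may have been counted at each locus and its level is not compared with the others.

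Despite the shared seed, miR-29c-3p stood apart from miR-29a-3p and miR-29b-3p in its ratios with passage and at P3, while the 3 were alike at P1. In counts scaled to the library's microRNA total (CPM), miR-29a-3p was at 189.3, 254.1, 1342 and 586.8. Its ratio of P3 to P1 was 7.09 in control (95% counting interval 6.68 to 7.53) and 2.31 in Lin28a (2.20 to 2.43), and 27.1% of 428 microRNAs were higher and 29% lower past 2-fold in control, against 13% and 17.7% of 424 in Lin28a. The miR-29b-3p level was 7.91, 10.5, 74.6 and 32.2 CPM, and its ratios were 9.43 (7.06 to 12.8) and 3.07 (2.40 to 3.95). By contrast, miR-29c-3p was at 148, 191.2, 234.7 and 225.5 CPM, with ratios of 1.59 (1.47 to 1.72) and 1.18 (1.10 to 1.26). At P3, Lin28a was below control for miR-29a-3p (ratio 0.437) and miR-29b-3p (0.432), and miR-29c-3p was at 0.961 (0.902 to 1.02), where 15.5% of 414 microRNAs were higher and 12.1% lower. At P1 the 3 ratios of Lin28a to control lay between 1.29 and 1.34, with 2.66% of 414 microRNAs higher and 4.35% lower past 2-fold. The intervals cover counting error only.

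**Figure D5:**
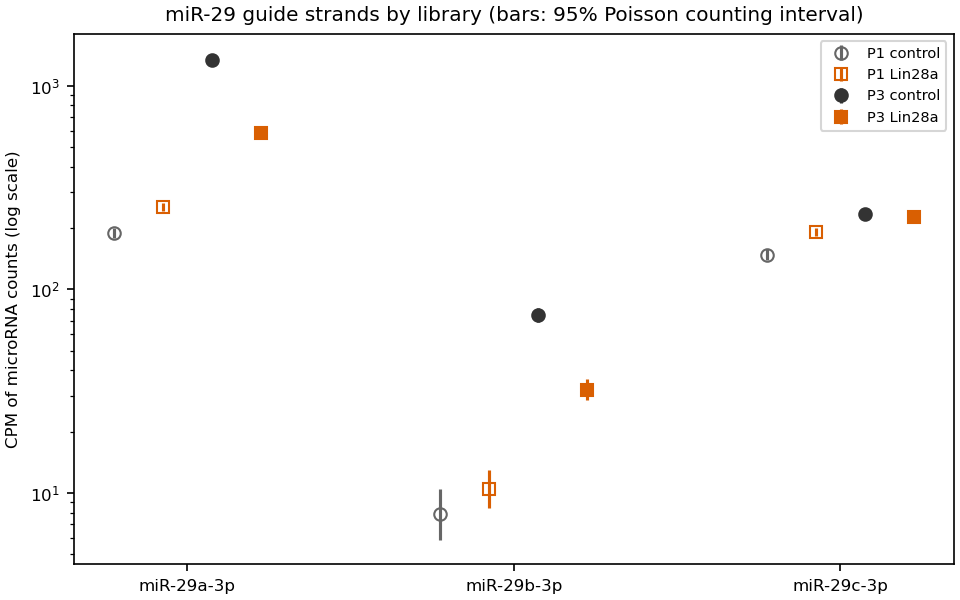
CPM of the miR-29 guide strands (log axis) in the 4 small RNA libraries, with circles for control, squares for Lin28a, open for P1 and filled for P3; bars are 95% Poisson counting intervals. In P3 control miR-29a-3p stands at 1342 CPM, above its 586.8 CPM in P3 Lin28a, while miR-29c-3p is at 234.7 and 225.5 CPM.

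Set beside these microRNA values, collagen RNA was in part higher and in part lower after passage. Between P1 and P3 control, where miR-29a-3p was 7.09 times as high, 19 of 30 collagens were higher by some amount and 11 lower, where 49.7% of all genes were higher and 50.3% lower. The summed collagen level was 225.6 and 404.7 FPKM, or 0.0497% and 0.0708% of the summed level of all genes. At P3, where miR-29a-3p was lower in Lin28a, 18 of 27 collagens were also lower in Lin28a, where 51.5% of all genes were lower. In polysome RNA at P3, 11 of 19 collagens were higher in Lin28a, where 62.8% of all genes were higher. At P1, miR-29a-3p was 1.34 times as high in Lin28a. There 20 of 28 collagens were lower in Lin28a, where 51.6% of all genes were lower. Between P1 and P3 Lin28a, miR-29a-3p was 2.31 times as high. There 20 of 29 collagens were higher and 9 lower, where 6291 of 12850 genes were higher. Target sites were not examined, and a link between the microRNA and these values was not tested.

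Genes that act on collagen or on integrins were taken from lists by role, and their counts stand beside 11.5% of all genes past 2-fold higher and 8.14% lower at P3 in control, and 8.38% and 4.8% in Lin28a. In control, 4 of 14 collagen folding and modification genes were past 2-fold higher at P3 and none lower, led by P4ha1, a prolyl hydroxylase subunit, at 18.8, 12.2, 85.2 and 64.6 FPKM, while the collagen chaperone Serpinh1 was at 215.6, 199.5, 223.3 and 246 FPKM. Of 10 processing and crosslinking genes, 2 were higher and 1 lower, with the lysyl oxidase Loxl2 at 8.18, 6.69, 37.4 and 43.2 FPKM and Adamts3, which trims procollagen, at 8.18, 9.84, 1.33 and 1.88 FPKM. The other basement membrane genes were 2 higher and 2 lower of 11, with Smoc1 at 24.0, 15.7, 164 and 146 FPKM and Frem1 at 15.9, 15.7, 2.19 and 3.98 FPKM. The remaining adhesion ligands were 1 higher and 2 lower of 11, led by tenascin R (Tnr) at 0.687, 0.415, 15.6 and 16.4 FPKM.

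Of 7 brain proteoglycan genes compared, 6 were past 2-fold higher at P3 in each culture, among them brevican (Bcan), at 51.9, 32.8, 328.8 and 152.2 FPKM. Of 16 genes of the adhesion complex inside the cell, 6 were higher and 1 lower in control and 4 higher and 0 lower in Lin28a. Lims2, a partner of integrin-linked kinase, was at 0.210, 0.0520, 26.0 and 13.1 FPKM, while Lims1, its relative, was at 33.7, 37.8, 32.2 and 33.9 FPKM. Of 14 matrix proteases and inhibitors, 6 were higher in control and 4 in Lin28a, and none was lower. The inhibitor Timp1 was at 2.41, 2.09, 27.9 and 8.90 FPKM, and at P3 it was among the 3 of 13 in this list that were past 2-fold lower in Lin28a than in control, where 1.34% of all genes were. In the other 4 lists the higher and lower counts at P3 against P1 in Lin28a were 4 and 0 (folding), 1 and 1 (processing), 3 and 1 (basement membrane) and 2 and 1 (ligands).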

How the data were processed

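RNA-seq, polysome and small RNA libraries of virus-treated mouse neural stem cells were grouped by assay, virus and passage as the sample titles give them, with 1 library per group. The authors deposited 1 value per gene for RNA-seq, read here as FPKM because the submitters' processing notes name Cufflinks 2.1.1 beside TopHat2 2.0.6, Bowtie 1.0.0 and build mm9, without saying which step used which tool. The polysome values deposited by the authors have the same layout and are read as RPKM, because the lowest values step as whole reads would. Their lowest listed values are 0.00204 (control) and 0.00331 (Lin28a), against 4.8e-07 in RNA-seq, so the 2 assays were quantified in different ways. Small RNA files hold read counts for each mature microRNA, per the file headers, and were deposited unscaled. Totals were 6322534 to 8542827 microRNA reads per library. Counts on the primary hairpin were not used, and 0 columns belonged to other samples.

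Ratios are log2 of value plus a pseudocount of 1, for genes at 1 or more in at least 1 library compared, and genes past 2-fold are counted. This scale understates differences of low genes. The polysome to RNA ratio needed 5 or more in all 4 libraries. Counts of microRNAs were divided by the library total (CPM), and a comparison holds those that reach 10 CPM in either library; their 2-fold counts add 1 CPM to both values, and intervals of ratios are exact conditional binomial at 95%. The scripts used Python 3.11.15, pandas 2.3.3, numpy 2.4.6 and scipy 1.17.1, and the ratio code was tested on simulated data. Promoter windows and microRNA sequences are from RefSeq tables of GRCm38.p6, in which all 78 member symbols were found; no mm9 coordinates are printed. The alternatives were a pseudocount of 0.1, a minimum of 5, no minimum, ratios centred on the median of all genes, and the 3 binding proteins left out; the scaling of microRNAs by median of ratios was added after seeing the data. The members and lists were chosen with earlier results of these data known. Genes outside the members were named by the largest ratios within each list, or, for Fabp7, Olig1 and Olig2, by their part in a sum. Serpinh1 and Lims1 were chosen after their values were seen.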

Additional observations from a re-analysis of the deposited data

Results flagged for a closer look

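Several members differed in sign between 2 comparisons of the same kind, each ratio being at least 0.1 on the log2 scale. None of these differences was tested, since each group is 1 library. Col4a2, a chain of the common type IV collagen, had a passage ratio of -0.29 in control and 0.48 in Lin28a. The same gene had a Lin28a to control ratio of -0.13 at P1 and 0.63 at P3. Its level was lowest in P3 control, at 14.8 FPKM, and highest in P3 Lin28a, at 23.5 FPKM, with 18.3 and 16.6 FPKM in P1 control and P1 Lin28a. The type VI chains Col6a1 (0.14 at P1 and -0.50 at P3) and Col6a2 (0.14 and -0.40) went together from slightly higher to lower in Lin28a, as did Col18a1 (0.20 and -0.42). The fibrillar collagen Col3a1 (-0.24 and 0.30) and the laminin receptor chain Itga6 (-0.17 and 0.25) went the opposite way.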

How the results depend on the processing

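Of 77 recomputed summary values, 71 stayed within 1.5 times the reported count or, for microRNA ratios, their counting interval, and 6 moved. With a pseudocount of 0.1 the members past 2-fold lower in P3 Lin28a RNA-seq numbered 5 in place of 1, and those lower at P3 in control 8 in place of 5. With a minimum of 5, those lower at P3 in control numbered 3, and those lower in Lin28a polysomes 0. Of 417 further values for families and named genes, 9 moved. For example, 7 collagens in place of 4 were lower at P3 in control with a pseudocount of 0.1, and 2 laminins in place of 1 were higher at P3 in Lin28a. With median-of-ratios scaling the ratio of Lin28a to control for miR-29a-3p was 1.24 at P1 in place of 1.34 and 0.413 at P3 in place of 0.437, while the other microRNA ratios stayed within their intervals. Leaving out the minimum, centring on the median of all genes and leaving out the binding proteins moved no count by over 1.5 times. Part of this was fixed in advance. With a pseudocount of 1, a gene below 1 in both libraries cannot pass 2-fold, so leaving out the minimum could not add to a count between 2 libraries. For single genes, leaving out the minimum or the binding proteins does not alter the ratio, so these values say nothing about stability. A pseudocount of 0.1 can only move a ratio between 2 libraries further from 0. Centring shifts ratios by at most 0.07. No setting could therefore turn the sign of a member past 2-fold, and the kept signs say nothing about stability either. Medians did change with no minimum, since low genes have ratios near 0 on this scale: the members' median passage ratio was 0.07 in place of 0.61 in control and 0.08 in place of 0.50 in Lin28a, that of laminins in Lin28a was -0.04 in place of 0.31, and that of the members in polysomes was 0.00 in place of -0.07. No paired analysis was possible because each group holds 1 library and the labels give no replicate numbers. Without replicates, and with total depth unknown, how far 2 cultures of 1 group would differ was not measured, and genes near 1 FPKM are the least certain.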
